A study of Mus musculus with 6 samples.

Results

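Heat shock proteins and chaperones were examined in endothelial cells sorted from mammary glands of mice with a polyoma middle T oncogene, with and without Ets2 in the surrounding fibroblasts. The set held 10 genes, namely the stress-inducible Hsp70 genes Hspa1a and Hspa1b, their J-domain partner Dnajb1, Hsph1, Hsp90aa1, the small heat shock protein gene Hspb1, the constitutive Hsp70 gene Hspa8, the mitochondrial chaperonin pair Hspd1 and Hspe1, and Hspa5 of the endoplasmic reticulum. They were taken by name from 18193 genes with at least 1 probe set assigned to that gene alone, and they covered 25 of the 45037 probe sets tested. Each gene was represented by its brightest probe set, the one with the highest mean over the 6 arrays, and its other probe sets are given beside it. RNA came from 3 samples with Ets2-deleted fibroblasts (PyMT;Fsp-cre;Ets2db/loxP, hereafter deleted samples) and from 3 control samples (PyMT;Ets2db/loxP). All mice were FVB/N, aged 9 weeks, and by their genotype labels carried the PyMT oncogene, 1 Ets2db allele, which is a conventional knockout allele of the DNA-binding domain, and 1 conditional Ets2loxP allele. The labels of the control samples conflict, since their source field states the absence of an oncogene whereas genotype, title and description name PyMT. Were the source field right, each difference would also set mice with the oncogene against mice without it. By the genotypes control mice had a single working Ets2 allele in every cell, and deleted mice lost it where Fsp-Cre, driven by the promoter of fibroblast specific protein 1 (Fsp1, also called S100a4), was active. Cells were isolated by collagenase digestion and sorting with an antibody to CD31, and total RNA was amplified and hybridized to Affymetrix Mouse Genome arrays, with 1 array per sample. Values are log2 signals from Robust Multichip Average (RMA) processing, and each difference subtracts the control mean from the deleted mean on that log2 scale. The question was whether the loss of Ets2 in fibroblasts came with a different level of chaperone transcripts in the neighboring endothelial cells.

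Heat shock proteins bind unfolded or partly folded proteins and keep them from clumping. Hsp70 proteins work in cycles of ATP hydrolysis that J-domain proteins start and that nucleotide exchange factors end, Hsp90 takes over clients such as kinases and hormone receptors, and small heat shock proteins hold misfolded proteins without using ATP. Under heat, oxidation or other protein stress the transcription factor HSF1 binds repeats of a short sequence in the promoters of these genes and drives them, whereas stress in the endoplasmic reticulum induces Hspa5 and its partners through the unfolded protein response. In endothelial cells Hsp90 is known as a partner of endothelial nitric oxide synthase, and Hspb1 as a regulator of actin filaments under VEGF signaling. Stress-inducible members of the family are also known to respond to tissue dissociation.

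For none of the 10 genes did the groups differ beyond the spread between samples, since the 95% interval of each difference included 0. Of the representing probe sets 7 were higher and 3 lower in deleted samples, and their differences lay between -0.04 for Hspa1a and 0.26 for Hspe1, with a median of 0.08. Over all 18193 genes represented the same way the median difference was 0.00 and 50.9% of genes were higher. The median size of a difference, sign left aside, was 0.08 for the 10 genes and 0.11 for all genes. With limma's moderated test and Benjamini-Hochberg adjustment over all probe sets, 0 of the 25 probe sets of these genes were called at an adjusted p under 0.05, where 0% of all probe sets were called and every adjusted p of the 25 was 0.9999. Likewise 0 of the 25 passed an unadjusted p under 0.05, against 2.07% of all probe sets, and the smallest unadjusted p in the limma fit was 0.0532 for the dimmer Dnajb1 probe set. An unmoderated fit gave 0 calls of the representing probe sets at either threshold. The study's own thresholds were more than 2-fold at a P under 0.05, without a statement on adjustment. Taken with the unadjusted p of the limma fit, they were passed by 0 of the 25 and by 0.129% of all probe sets. The groups did not overlap at 3 of the 25 probe sets (12%), against 6.44% of all probe sets, and at 0 of the 10 representing ones.

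The 95% intervals of the limma fit show how large a difference could have been missed. For the representing probe sets they reached 0.30 to 0.57 to either side of the difference. In folds of deleted over control the highest upper bound was 1.60, for Hspe1, and the lowest lower bound 0.656, for Hspa1a. These genes were measured at high signal, since their representing probe sets ranked at percentiles 91.9 to 99.9 of all probe sets, and only 2 of the 25 probe sets lay below the median signal of 7.03. Their pooled SD within groups had a median of 0.17, against 0.24 for all probe sets and 0.18 for those in the top decile of signal. The SD of the 10 genes was thus near that of other bright probe sets, and very bright probe sets can be compressed. For each gene, an observed difference smaller than the reach of its own interval, 0.30 to 0.57, could not be told from 0 with these arrays. Precision is limited by having 3 arrays a group, and in RNA from a sorted population fewer cells of a type and less RNA per cell cannot be told apart. Signals of unlike probe sets cannot be ranked as transcript abundance.

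**Figure D1:**
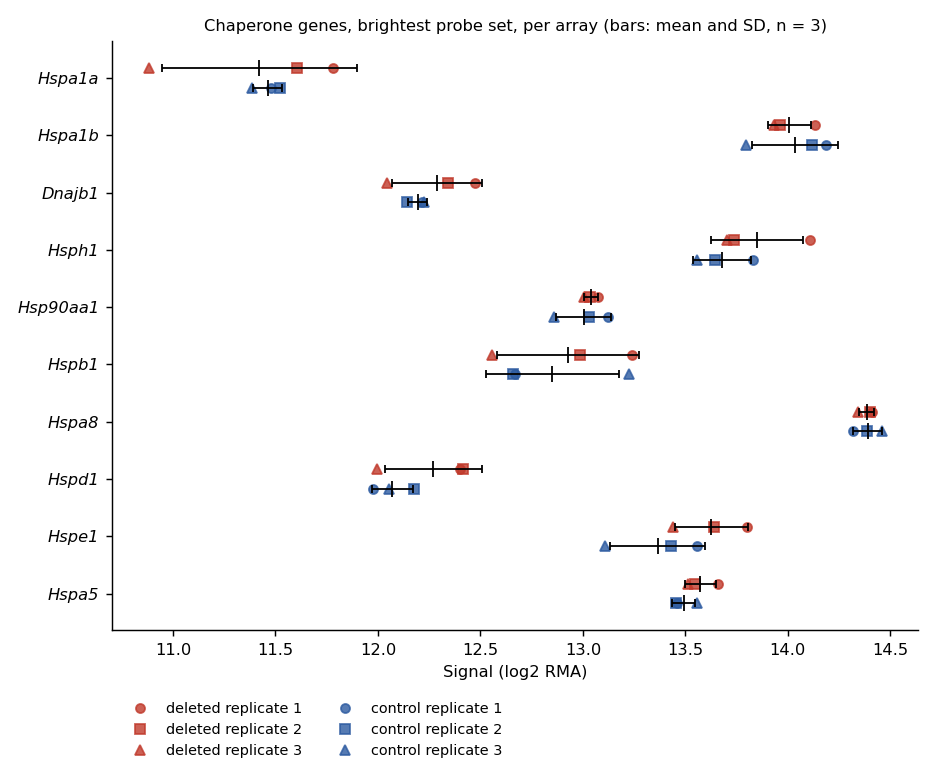
Log2 RMA signal of the brightest probe set of each of the 10 chaperone genes (horizontal axis), with arrays of deleted samples in red above and arrays of control samples in blue below, 1 symbol shape per replicate, and group means with SD drawn in black (n = 3). The groups overlap for each gene, and Hspa1a in deleted replicate 3, at 10.88, lies furthest from its group.

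Promoters of most of these genes hold letters of the element that HSF1 is known to bind. A heat shock element is made of inverted repeats of the 3 bases GAA. It was searched on both strands in the RefSeq promoters of the GRCm38.p6 build, from 250 bases before to 50 bases after each start site, as 3 units (GAANNTTCNNGAA or TTCNNGAANNTTC) or as 2 units (GAANNTTC or TTCNNGAA), where each 3-unit match also holds 2-unit matches. The promoters of 8 of the 10 genes were matched, all but Hsp90aa1 and Hspa8, with 11 start sites in all. The 3-unit element was found in 3 genes, Hsph1, Hspd1 and Hspe1, and in 0.603% of 32851 promoters, and the 2-unit element in these and in Hspa1a, Hspa1b and Hspb1, against 15.1% of all promoters. The element of the endoplasmic reticulum stress response (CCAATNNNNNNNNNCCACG) was found in Hspa5 and in 0.119% of all promoters, and no match was found in the window of Dnajb1. A match is a run of letters and not a measured site of binding. The sequences below, 80 bases each, are shown because they carry these elements in the genes whose values follow, with the matched letters in capitals. They lie at chr1:55088025-55088104 (plus strand) for Hspe1, chr17:34959299-34959378 (minus strand) for Hspa1b, chr5:149636337-149636416 (minus strand) for Hsph1, chr5:135887766-135887845 (plus strand) for Hspb1 and chr2:34771994-34772073 (plus strand) for Hspa5.
Hspe1: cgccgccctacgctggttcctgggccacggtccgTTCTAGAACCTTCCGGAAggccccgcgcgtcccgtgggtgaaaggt
Hspa1b: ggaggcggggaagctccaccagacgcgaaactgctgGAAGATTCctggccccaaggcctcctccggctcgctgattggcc
Hsph1: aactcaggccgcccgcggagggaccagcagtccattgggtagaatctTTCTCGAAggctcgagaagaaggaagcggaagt
Hspb1: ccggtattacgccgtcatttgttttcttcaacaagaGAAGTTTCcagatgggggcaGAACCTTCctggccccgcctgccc
Hspa5: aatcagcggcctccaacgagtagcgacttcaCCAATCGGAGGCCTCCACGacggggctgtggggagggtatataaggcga

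The stress-inducible Hsp70 genes had differences close to 0 and overlapping groups. Hspa1b (chromosome 17, 34956429 to 34959238) read 14.13, 13.96 and 13.93 in the deleted arrays, against 14.19, 14.12 and 13.79 in the control arrays. The groups overlapped, with control replicate 1 highest and control replicate 3 lowest, and the difference of -0.03 had a 95% interval from -0.40 to 0.35. Hspa1a (chromosome 17, 34969359 to 34972156) read 11.78, 11.60 and 10.88 in the deleted arrays, against 11.48, 11.52 and 11.39 in the control arrays. Deleted replicate 3 alone was low, the control arrays lay close together between the other deleted arrays and it, and the difference was -0.04 with an interval from -0.61 to 0.53. Without deleted replicate 3 Hspa1a differed by 0.23, and without deleted replicate 1 by -0.22. Hspa1a and Hspa1b are near-identical copies, and their promoters were the same at 296 of 300 bases (98.7%). The substitutions, with the Hspa1b base first and positions counted from 1 at the 5′ end of the window, were T44C, C47T, G249T and T276C, all outside the heat shock element shown above. Which of these copies each probe set reads was not tested, so the values of both genes are uncertain as to the copy. Hspa1b had 2 dimmer probe sets, which differed by 0.11 and 0.08 and were both lowest in control replicate 3, at 11.74 and 11.17. Without that array they differed by -0.21 and -0.28.

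Partners of inducible Hsp70 were close to 0 or slightly higher at their brightest probe sets. Dnajb1 (chromosome 8, 83608175 to 83612653) encodes the J-domain protein that delivers clients to Hsp70. It read 12.48, 12.34 and 12.05 in the deleted arrays, against 12.22, 12.14 and 12.23 in the control arrays. The deleted arrays spread on both sides of the control arrays, and the difference was 0.09 (95% interval -0.27 to 0.46). Its dimmer probe set read 11.36, 11.34 and 11.22 in the deleted arrays, against 11.17, 10.88 and 10.37 in the control arrays. There the groups did not overlap, and the difference of 0.50 (95% interval -0.01 to 1.01) was the largest of the 25 probe sets in size. It was 0.28 without control replicate 3, the lowest array. Hsph1 (chromosome 5, 149616843 to 149636498), a nucleotide exchange factor of Hsp70 of the Hsp110 family, read 14.11, 13.74 and 13.70 in the deleted arrays, against 13.83, 13.65 and 13.56 in the control arrays. Its groups overlapped through control replicate 1, and the difference of 0.17 had an interval from -0.22 to 0.57 and was 0.04 without deleted replicate 1. The dimmer Hsph1 probe set differed by 0.41 (-0.32 to 1.13), with 10.60 in deleted replicate 1 and 9.14 in control replicate 3 at its ends, and by 0.12 without control replicate 3. Besides the element shown above, the Hsph1 promoter held a 3-unit element 36 to 48 bases after its start site.

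Hsp90aa1, the inducible cytosolic Hsp90 (chromosome 12, 110691036 to 110696395), was among the steadiest members. Its brightest probe set read 13.07, 13.04 and 13.00 in the deleted arrays, against 13.12, 13.03 and 12.86 in the control arrays. The difference was 0.03 with an interval from -0.29 to 0.35, and all 6 arrays lay within 0.27 of each other. Its other 4 probe sets did not move together. One differed by 0.11 and was set apart by deleted replicate 2, at 12.98 against 12.28 to 12.51 in the other 5 arrays. Another differed by 0.25, with 11.40 in control replicate 3 against 12.10 to 12.35 elsewhere, and by -0.04 without that array. The dimmest read 5.58, 5.84 and 5.64 in the deleted arrays, against 6.07, 6.03 and 5.84 in the control arrays, and its groups did not overlap. Its difference of -0.30 (95% interval -0.64 to 0.04) ran against the others of the gene, at a signal below the median of all probe sets. The last, also below the median signal, differed by 0.06.

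Hspb1 varied widely between arrays of both groups, and Hspa8 hardly varied at all. Hspb1 (chromosome 5, 135887919 to 135889563), the small heat shock protein also called Hsp25 in mice, read 13.24, 12.99 and 12.55 in the deleted arrays, against 12.67, 12.66 and 13.23 in the control arrays. Control replicate 3 was level with deleted replicate 1 and far above the other control arrays, and the difference was 0.08 (95% interval -0.49 to 0.64). A second Hspb1 probe set also had control replicate 3 far above the other control arrays. It read 13.15, 12.91 and 12.47 in the deleted arrays, against 12.48, 12.54 and 13.21 in the control arrays, a difference of 0.10. Without control replicate 3 the brightest differed by 0.26, and without deleted replicate 1 by -0.08. Hspa8 (chromosome 9, 40801276 to 40805202), the Hsp70 that cells make without stress, read 14.41, 14.40 and 14.34 in the deleted arrays, against 14.32, 14.39 and 14.46 in the control arrays. Its arrays spanned 0.14, and its pooled SD of 0.06 ranked at percentile 1.58 of all probe sets, at a signal near the top of the scale. The difference was -0.00 with an interval from -0.30 to 0.29. Of its other probe sets 2 bright ones differed by 0.01 and 0.07, and the dimmest, which was lowest in control replicate 3 at 11.11 and at least 11.28 on each remaining array, differed by -0.06 and by -0.22 without that array.

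The mitochondrial chaperonin pair was slightly higher in deleted samples, with intervals that included 0. Hspd1 (Hsp60, chromosome 1, 55077833 to 55088243) and its lid Hspe1 (Hsp10, chromosome 1, 55088148 to 55091317) are neighbors transcribed away from each other. The window of the second Hspd1 start site shared 285 of its 300 bases with the Hspe1 window, so both genes hold the heat shock element shown for Hspe1, on opposite strands. Hspd1, with a single probe set, read 12.40, 12.41 and 12.00 in the deleted arrays, against 11.98, 12.18 and 12.06 in the control arrays. Deleted replicates 1 and 2 lay above the control arrays and deleted replicate 3 among them, and the difference was 0.20 (95% interval -0.19 to 0.59). Hspe1 read 13.80, 13.64 and 13.44 in the deleted arrays, against 13.55, 13.43 and 13.11 in the control arrays. Its groups overlapped through deleted replicate 3 and control replicate 1, and the difference of 0.26 (-0.15 to 0.68) was the largest among representing probe sets. The dimmer Hspe1 probe set differed by 0.43 (-0.10 to 0.95). Without control replicate 3, the lowest array at both, the pair of Hspe1 probe sets differed by 0.13 and 0.23. Hspd1 differed by 0.19 without that array and by 0.13 to 0.34 with any single array left out.

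Hspa5, the Hsp70 of the endoplasmic reticulum also called BiP or Grp78 (chromosome 2, 34772090 to 34776529), also had a small difference. Its brightest probe set read 13.66, 13.55 and 13.51 in the deleted arrays, against 13.46, 13.45 and 13.56 in the control arrays. Control replicate 3 reached into the deleted range, and the difference was 0.08 (95% interval -0.22 to 0.39) and 0.04 without deleted replicate 1. A second bright probe set read 13.56, 13.43 and 13.44 in the deleted arrays, against 13.36, 13.28 and 13.32 in the control arrays. Its groups did not overlap, with a difference of 0.16 (-0.14 to 0.46), and it was 0.16 without control replicate 3 as well. The remaining, dim probe set differed by 0.09.

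**Figure D2:**
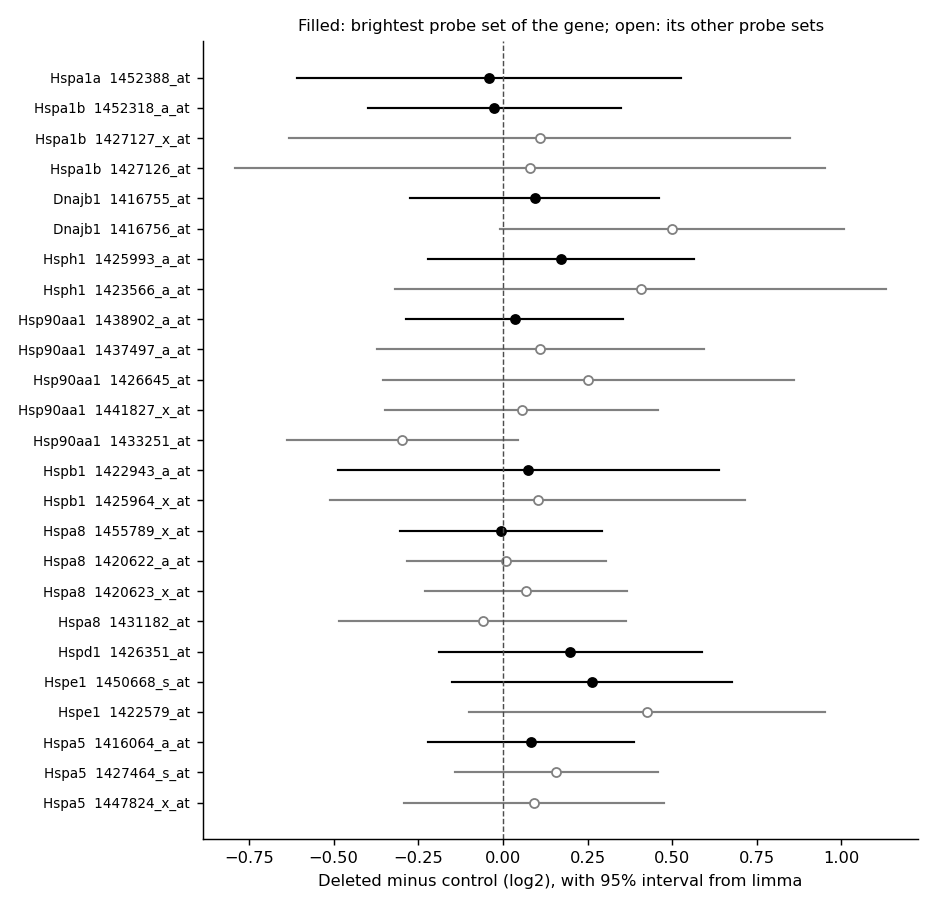
Deleted minus control difference in log2 signal (horizontal axis) of all 25 probe sets of the 10 chaperone genes with the 95% interval of the limma fit, filled for the brightest probe set of a gene and open for its others. Every interval includes 0, and the largest differences upward, 0.50 for Dnajb1, 0.43 for Hspe1 and 0.41 for Hsph1, are at dimmer probe sets.

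At the brightest probe sets deleted arrays lay at both ends of the range of the chaperone genes. Deleted replicate 1 was the highest array for 6 of the 10 genes, and all 10 lay above their own 6-array mean there, by 0.21 on average. Deleted replicate 3 was the lowest for 3 genes, and all 10 lay below their mean, by -0.15 on average. Deleted replicate 2 averaged 0.07, and the control arrays -0.01, -0.04 and -0.07. Control replicate 3 was lowest for 4 genes, Hspa1b, Hsph1, Hsp90aa1 and Hspe1, and highest for Hspa8. Over all 25 probe sets the order was different, since the mean deviation was 0.23, 0.07 and -0.13 in the deleted arrays, against 0.04, 0.00 and -0.21 in the control arrays, and control replicate 3 was the lowest. Across the 10 genes the median difference became 0.22 without deleted replicate 3 and 0.01 without deleted replicate 1.

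**Figure D3:**
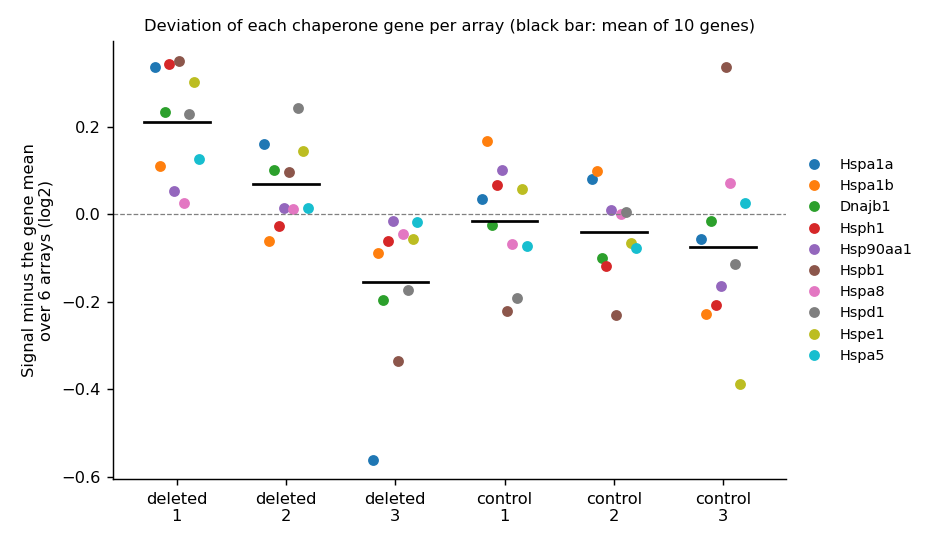
Log2 signal of each chaperone gene at its brightest probe set minus that gene's mean over the 6 arrays (vertical axis), by array, with a black bar for the mean of the 10 genes. In deleted replicate 1 all 10 genes lie above 0, with a mean of 0.21, and in deleted replicate 3 all 10 lie below it, with a mean of -0.15.

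Within the groups the genes fell into pairs that varied alike and pairs that did not. After each group mean was taken off, Pearson's r over the 6 arrays was above 0 for 36 of the 45 pairs, with a median of 0.48. Hspa1b varied most like Hsp90aa1 (r = 0.95) and Hspe1 (0.95), all 3 being lowest in control replicate 3. Hspa1a varied like Dnajb1 (0.94), both being lowest in deleted replicate 3, and like Hspd1 (0.91). Hspb1 varied like Hspa5 (0.93) and Hspa8 (0.86), each higher in control replicate 3 than in the other control arrays. Between Hsp90aa1 and Hspa8 r was -0.73. These values describe 6 arrays, the points share the arrays and their RNA quality, and no test was made. Outside the members, the genes above the median signal most like Hspa1b over the 6 arrays, by Pearson's r without taking off group means, were Micall1 (0.99), Ganc (0.99), Prm1 (0.98), Tmem81 (0.98), Mfap2 (0.97), Paip2b (0.97), Ankrd40 (0.97) and Nfix (0.97). Of the 11278 genes ranked, 62 (0.550%) had an r over 0.9.

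Control replicate 3 also stood apart in RNA measures, and some of the larger differences of the set shrank without it. The difference of the dimmer Dnajb1 probe set fell from 0.50 to 0.28, and that of the dimmer Hsph1 probe set from 0.41 to 0.12. Others did not shrink in this way, with Hspd1 at 0.20 and 0.19 and the dimmest Hsp90aa1 probe set at -0.30 and -0.37. The 3′ minus 5′ signal of the Gapdh control probe sets was 1.01, 0.851 and 0.779 in the deleted arrays, against 0.752, 0.879 and 1.31 in the control arrays. For beta-actin it was 1.29, 1.14 and 1.03 in the deleted arrays, against 0.994, 1.09 and 1.67 in the control arrays. A wider gap means that less signal came from the 5′ part of these transcripts, and on the first principal component of all probe sets, which held 42.0% of the variance, control replicate 3 lay furthest out at 70.2. Relative to the brightest probe set of the same gene, the 15 dimmer probe sets were lowest in control replicate 3 in 10 cases, in deleted replicate 3 in 3 cases and in deleted replicate 1 and control replicate 1 in 1 case each. Over all 25 probe sets control replicate 3 was lowest at 11 and deleted replicate 1 highest at 16. The part of RNA quality in these differences was not tested.

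**Figure D4:**
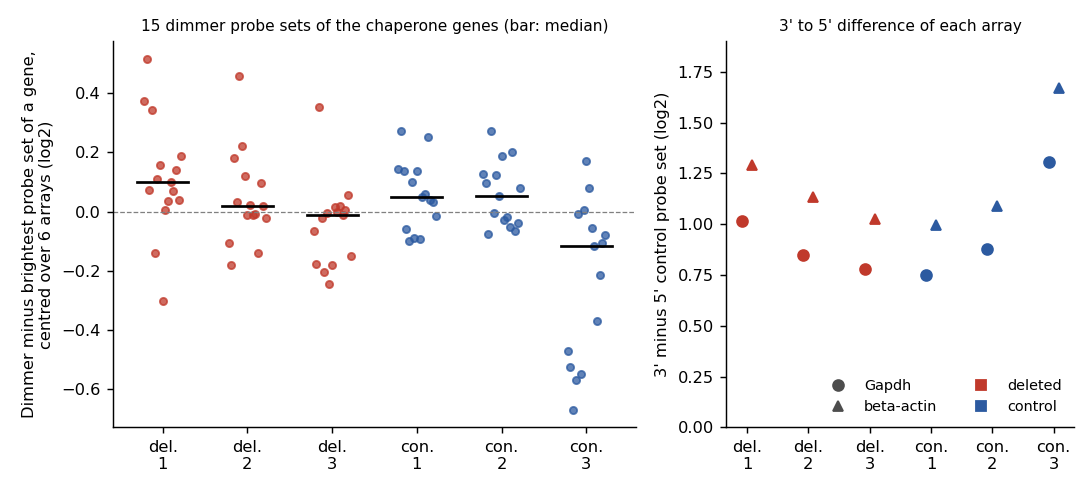
Left, signal of the 15 dimmer probe sets minus the brightest probe set of the same gene, centred over the 6 arrays (vertical axis, log2), by array, with a black bar for the median, and right, 3′ minus 5′ signal of the Gapdh (circles) and beta-actin (triangles) control probe sets, with deleted arrays in red and control arrays in blue. The dimmer probe sets are lowest in control replicate 3 in 10 of 15 cases, and the same array has the widest 3′ to 5′ gaps, 1.31 and 1.67.

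Beyond the 10 members, 109 other genes of protein folding were measured in lists of related families. Of these 70 were higher and 39 lower in deleted samples, with a median difference of 0.05, 0 were called at an adjusted p under 0.05 in the limma fit, and 0 differed by more than 1 in size. At an unadjusted p under 0.05 there were 2, Stip1 and Manf (1.83%, against 2.07% of all probe sets), and 11 had groups without overlap (10.1%, against 6.44%). Stip1, which links Hsp70 to Hsp90 (Hop in humans), had the largest difference. It read 11.33, 10.88 and 10.59 in the deleted arrays, against 10.39, 10.44 and 10.32 in the control arrays, and every deleted array lay above every control array. The difference was 0.55 (95% interval 0.07 to 1.03), and it was 0.35 without deleted replicate 1. Manf, a secreted factor of the endoplasmic reticulum induced by the unfolded protein response, read 11.53, 11.29 and 11.18 in the deleted arrays, against 10.90, 11.07 and 10.92 in the control arrays. The groups did not overlap, and the difference of 0.37 (0.01 to 0.72) stayed between 0.27 and 0.45 with any single array left out.

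The heat shock transcription factors that could be measured were dim on these arrays. Hsf2, Hsf4 and Hsf5 lay below the median signal, their regulator Hsbp1 well above it, and Hsf1, the main factor of the response, had no probe set assigned to it alone. Of these 4 genes 1 was higher and 3 lower, with a median of -0.05 that became 0.04 without control replicate 3 and 0.02 without deleted replicate 1, and Hsf2 differed by 0.00 (-0.69 to 0.69) and Hsf5 by -0.08 (-0.51 to 0.34). Hsf4 and Hsbp1 fall outside the naming rule and were chosen with their values known. The other Hsp70 and Hsp110 genes had a median of 0.08 (8 higher, 2 lower), between 0.27 for Hspa12a and -0.04 for the exchange factor Hspa4. Without deleted replicate 1 the median was 0.02 and Hspa12a differed by 0.14, and without control replicate 3 Hspa4 differed by 0.04. The other J-domain genes had a median of 0.08 (16 higher, 2 lower), between 0.28 for Dnajb11, which serves Hspa5 in the endoplasmic reticulum, and -0.18 for Dnajb14, and without control replicate 3 the median was 0.04 and Dnajb11 differed by 0.16. In the remaining Hsp90 family Hsp90b1, the form of the endoplasmic reticulum, read 12.61, 12.56 and 12.61 in the deleted arrays, against 12.35, 12.49 and 12.11 in the control arrays. Its difference of 0.27 (-0.08 to 0.62) was without overlap and became 0.17 without control replicate 3, while mitochondrial Trap1 differed by -0.02 and by 0.04 without that array. Small heat shock proteins had a median of 0.11 (4 higher, 3 lower), between 0.18 for Hspb7 and -0.50 for Hspb6, and without control replicate 3 the median was -0.01, Hspb7 differed by 0.07 and Hspb6 by -0.07. Without deleted replicate 1 the median was 0.02.

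Cochaperones and folding machines of other compartments had small median differences, which 1 array could turn in some lists. Cytosolic cochaperones had a median of 0.11 (12 higher, 8 lower), with Unc45a, a myosin chaperone, lowest at -0.24, and at 0.08 without control replicate 3. The cytosolic chaperonin and prefoldin subunits had a median of 0.04 (9 higher, 5 lower), between 0.43 for Pfdn2 and -0.17 for Pfdn1. That median was -0.02 without deleted replicate 2, -0.03 without control replicate 1 and 0.13 without deleted replicate 3, Pfdn2 differed by 0.25 without control replicate 3, and Pfdn1 by 0.05 without deleted replicate 1. Mitochondrial folding and quality control genes had a median of 0.01 (5 higher, 5 lower), between 0.17 for Hscb, a J-domain protein of iron-sulfur cluster assembly, and -0.38 for the protease subunit Clpx, which differed by -0.06 without deleted replicate 1. Hscb differed by 0.03 without control replicate 3, and the median lay between -0.09 and 0.05 with 1 array left out. Among 28 genes of the endoplasmic reticulum, which include Hsp90b1 and Manf, 19 were higher and 9 lower, with a median of 0.04 and the lowest at -0.22 for the ubiquitin ligase Syvn1, which differed by -0.04 without control replicate 3. Groups did not overlap for 5 of the 28, against 6.44% of all probe sets, 4 of them higher in deleted samples (Hsp90b1, Pdia3, Pdia6 and Manf) and Eif2ak3, the kinase PERK, lower at -0.20. The mean deviation of the 28 genes per array was 0.0833, 0.00737 and 0.00893 in the deleted arrays, against -0.0525, 0.00372 and -0.0508 in the control arrays, so that the groups did not overlap but control replicate 2 lay next to deleted replicates 2 and 3. The stress factors Ddit3 and Xbp1 of the unfolded protein response differed by -0.01 and -0.10. Edem1, Creld2 and Dnajc3 of the same list differed by 0.24, 0.18 and 0.16, and 1 array could change these values. Without deleted replicate 1 Edem1 differed by 0.07. Without control replicate 3 Dnajc3 differed by -0.13 and Creld2 by 0.39. With 19 of the 28 genes higher and 9 lower, these named genes do not stand for the list. Pdia3, Pdia6, Eif2ak3, Ddit3, Xbp1, Edem1, Creld2 and Dnajc3 were chosen after their values were seen.

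Of 17 known heat-inducible genes outside the members, 14 were higher and 3 lower in deleted samples, with a median of 0.13 and a range from -0.07 for Hmox1 to 0.55 for Stip1. Hmox1 differed by 0.07 without deleted replicate 1. For 2 of the 17 the groups did not overlap, against 6.44% of all probe sets, namely Stip1 and the collagen chaperone Serpinh1, which was chosen after its values were seen and differed by 0.41 (-0.05 to 0.86) and by 0.22 without deleted replicate 1, and 0 were called at an adjusted p under 0.05. Immediate early genes, a group of early response factors that is known to rise during tissue digestion, were 19 higher and 2 lower of 21, with a median of 0.12, between 0.38 for Ppp1r15a and -0.52 for Fosl1. Their mean deviation per array was -0.04, -0.20 and 0.41 in the deleted arrays, against 0.07, -0.03 and -0.21 in the control arrays. Deleted replicate 3 was thus the highest array for immediate early genes and, at the brightest probe sets, the lowest for the 10 chaperones, at -0.15. Over all 25 chaperone probe sets control replicate 3 was the lowest, at -0.21. That array was also the lowest for immediate early genes, next to deleted replicate 2. Without deleted replicate 3 the median of the immediate early list was -0.05, and without control replicate 3 it was 0.00 and Ppp1r15a differed by 0.22. Fosl1, at a signal below the median of all probe sets, differed by -0.17 without deleted replicate 1.

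**Figure D5:**
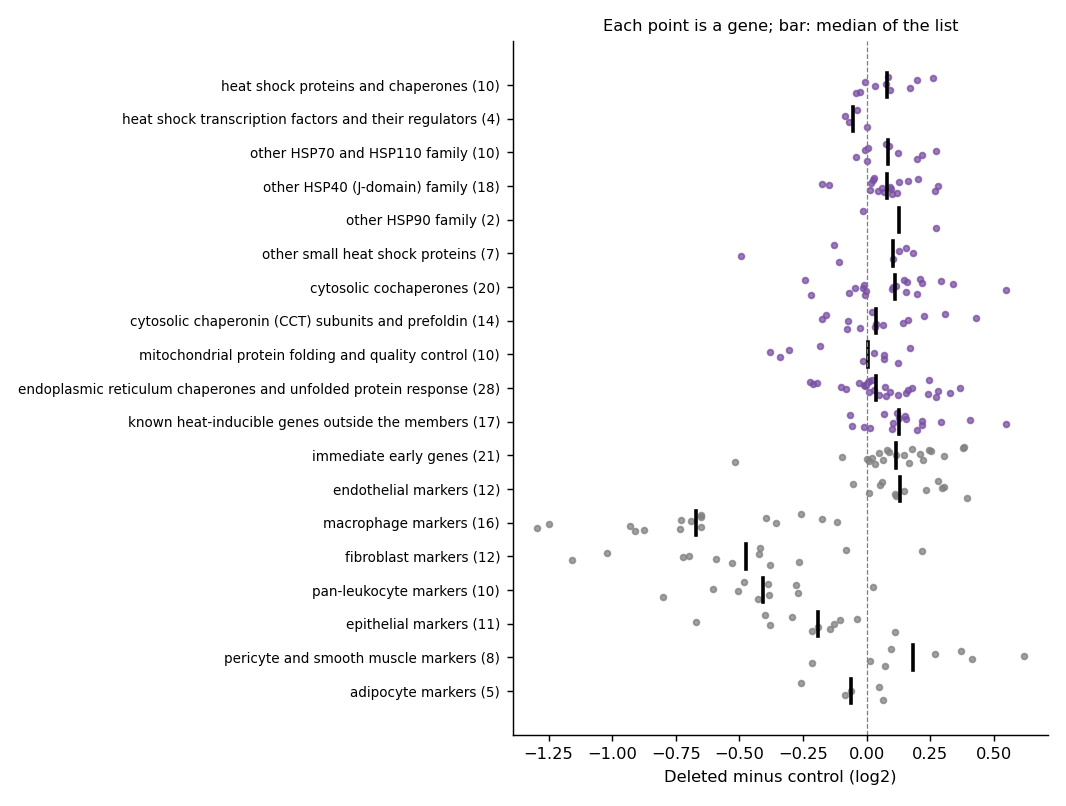
Deleted minus control difference in log2 signal of each gene at its brightest probe set (horizontal axis), by gene list, with the number of genes measured in brackets, protein folding lists in purple, other lists in gray and a black bar for the median of each list. The chaperone lists have medians from -0.05 to 0.13, and the lists lying furthest to the left are macrophage markers, with a median of -0.67, and fibroblast markers, with a median of -0.48.

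Markers of macrophages and fibroblasts were at lower levels in each deleted array than in any control array, taken as the mean over each list. The endothelial markers Pecam1 (CD31), Cdh5 and Kdr read at percentiles 92.2, 89.3 and 95.5 of all probe sets and differed by 0.39, 0.11 and 0.11, in a list of 12 of which 11 were higher, with a median of 0.13. Without control replicate 3 they differed by 0.16, -0.08 and -0.05 and the median was 0.06, and without deleted replicate 1 Cdh5 differed by -0.08 and the median was 0.06 as well. All 16 macrophage markers were lower in deleted samples, with a median of -0.67, 9 at an unadjusted p under 0.05, against 2.07% of all probe sets, and 0 at an adjusted p under 0.05 by limma, and their mean deviation lay between -0.62 and -0.05 in the deleted arrays and between 0.04 and 0.72 in the control arrays. Without control replicate 3, the highest array, the median was -0.43. Fibroblast markers were lower for 11 of 12 genes (median -0.48), 6 at an unadjusted p under 0.05 and 0 at an adjusted p under 0.05, and their mean deviation lay between -0.32 and -0.16 in the deleted arrays and between 0.05 and 0.56 in the control arrays. Pan-leukocyte markers had a median of -0.41 (9 of 10 lower), epithelial markers -0.19 (10 of 11 lower), pericyte and smooth muscle markers 0.18 (7 of 8 higher) and adipocyte markers -0.06 (3 of 5 lower). Without control replicate 3 the leukocyte median was -0.19 and the epithelial one -0.06, without control replicate 2 the pericyte median was 0.02, and without control replicate 1 the adipocyte median was 0.13. Epcam read at percentile 96.4, Col1a1 at 96.6 and Ptprc, which encodes CD45, at 67.6 of all probe sets, so transcripts typical of epithelial cells, fibroblasts and leukocytes were read in the sorted samples beside those of endothelial cells. Col1a1 and Ptprc were chosen as defining markers after their values were seen. All of these cell types make chaperones, and the part of the cell mixture in the chaperone values was not tested. Over the same arrays the mean deviation of the 10 chaperones lay between -0.15 and 0.21 in the deleted arrays and between -0.07 and -0.01 in the control arrays at the brightest probe sets, and over all 25 probe sets between -0.13 and 0.23 in the deleted arrays and between -0.21 and 0.04 in the control arrays. Ets2 itself, aimed at in fibroblasts and not in the sorted cells, read 14.43, 14.30 and 14.50 in the deleted arrays, against 14.48, 14.41 and 14.26 in the control arrays at its brightest probe set, a difference of 0.02 that does not check the genotype labels.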

How the data were processed

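Endothelial RNA was measured on 6 arrays, 3 of deleted and 3 of control samples, which the study describes as biological replicates. Groups were taken from the genotype field; for controls it names PyMT, as do titles and descriptions, whereas their source field states that they had no oncogene; the conflict was not settled. The authors deposited a single series table of log2 RMA values (background subtraction, quantile normalization between arrays, 1 summary per probe set). The RMA version is not given in the sources used. RMA narrows differences at the dim end, and very bright probe sets can be compressed. With array medians of 7.02 to 7.07 the values were used as they stood.

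The table held 45101 probe sets, of which 64 were array controls and 45037 entered the tests unfiltered. The platform annotation gave 1 gene to 34945 of them, several to 932 and none here to 9160. RefSeq gene numbers matched 34741 of the first kind. The test was limma 3.58.1 (lmFit, eBayes, R 4.3.3), two-sided and without covariates, with Benjamini-Hochberg adjustment across the whole table at 0.05, and it was tested on simulated data. Promoters and positions come from RefSeq on GRCm38.p6. Identical values between any pair of arrays made up at most 0.218%, so no array was a copy.

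The members and the gene lists were chosen with earlier results of these data known. Named genes were the 10 members with every probe set, Ets2, Pecam1, Cdh5, Kdr, Epcam and the 8 genes most like Hspa1b. Added to them were the genes with the largest difference upward and downward of each other list outside the cell type markers. The rest are those said in the text to have been chosen after their values were seen. As alternatives, dim probe sets were dropped at the median signal, the prior was trended and robust, arrays were weighted, centred or quantile-normalized again, the prefix of the animal identifiers served as fixed or random block, moderation was omitted, genes were represented in other ways, and each array was left out in turn.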

Additional observations from a re-analysis of the deposited data

How the results depend on the processing

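No chaperone gene was called at an adjusted p under 0.05 by limma under any of 16 alternatives, where the smallest adjusted p of a member was 0.614. Of 160 values of the 10 genes, 141 kept their direction and 19 turned, in 6 genes whose main differences lay between -0.04 and 0.09. Hspa8 turned to 0.0119 with arrays centred on their medians, to 0.00754 with a further quantile normalization, to 0.00357 with the mean of all its probe sets and to 0.0106 with the brightest probe set outside the _x_at and _s_at types, and Hspa1b turned to 0.0544 with the mean of its probe sets. The identifiers of the animals share a prefix in deleted and control replicates 1 and in deleted and control replicates 2, but the labels do not say that it marks a litter, and the deviations of these pairs correlated at 0.17 and -0.02. Both replicate 3 arrays carry a prefix of their own, so the fixed block draws its differences from replicates 1 and 2 alone. With this replicate block as fixed, Hspa1a differed by 0.192, Hspa1b by -0.108, Hsp90aa1 by -0.0225, Hspa8 by 0.0517, Dnajb1 by 0.230, Hspd1 by 0.329 and Hspa5 by 0.145, the median of the members was 0.188, against 0.0790 without the block, and 1 member, Hspb1, passed an unadjusted p under 0.05 at a difference of 0.45 (limma, adjusted p = 0.614). With 1 array left out, the differences ranged from -0.219 to 0.230 for Hspa1a, -0.146 to 0.0516 for Hspa1b, -0.000212 to 0.215 for Dnajb1, -0.0391 to 0.0941 for Hsp90aa1, -0.0806 to 0.263 for Hspb1, -0.0391 to 0.0303 for Hspa8, 0.0420 to 0.248 for Hsph1, 0.0394 to 0.116 for Hspa5, 0.128 to 0.336 for Hspd1 and 0.135 to 0.358 for Hspe1, and the median of the 10 members from 0.00819 (without deleted replicate 1) to 0.222 (without deleted replicate 3). The probe sets past the study's thresholds, 58 in all, numbered 15 above the median signal, 152 with array weights, 317 with the fixed replicate block, 23 without moderation and 61 to 191 with 1 array left out. The cause of these shifts was not tested.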
